A study of Homo sapiens with 12 samples.

Results

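The nuclear lamins, their partners at the inner nuclear membrane and the HMGB proteins were followed in lung adenocarcinoma cells treated with an MDM2 inhibitor. The 8 genes were chosen by name, 3 lamin genes (LMNB1, LMNB2 and LMNA), 2 genes of lamina partners (LBR and TMPO) and 3 HMGB genes (HMGB1, HMGB2 and HMGB3), out of 20595 genes in the deposited table. No measured value entered that choice, and earlier results of these data were known when it was made.

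RNA was sequenced from A549 and H1792, established human lung adenocarcinoma lines that the study describes as MDM2-amplified, and each line was kept for 48 h in DMSO (the solvent) or in RG7112. RG7112 is a small molecule of the nutlin family that occupies the p53-binding pocket of MDM2, the ubiquitin ligase that holds p53 down. The 4 groups were A549 with DMSO, A549 with 1 μM RG7112, H1792 with DMSO and H1792 with 1 μM RG7112, each with 3 replicates, so that the time was common to all 12 samples. For the culture medium the labels name RPMI-1640 with fetal bovine serum for both lines, whereas the methods name DMEM for A549 and RPMI for H1792, so by the methods the medium and the cell line cannot be told apart. The sample labels and the methods give 1 μM, whereas the column names of the table carry 0.1 μM. In most of the study's text A549 is the p53 WT line and H1792 the mutant one, but its sentence on the RNA-seq design has these reversed. Each p53 status was represented by a single cell line, so p53 status and cell line cannot be told apart. No source used here says that the replicates were separate cultures.

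The lamina is a meshwork of intermediate filament proteins under the inner nuclear membrane. B-type lamins stay attached to that membrane and bind peripheral heterochromatin together with LBR. A-type lamins are built into the lamina later and bind the nucleoplasmic form of the LAP2 proteins, the products of TMPO. HMGB proteins bend DNA and loosen its hold on nucleosomes, and loss of lamin B1 and of nuclear HMGB proteins is known from senescent cells, in which p53 is a main regulator.

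The samples held 2011916 to 6218825 estimated counts (median 3928092). Levels are given as CPM, a count relative to its library size after TMM scaling, and each error is the SD of 3 replicates. Epithelial markers (EPCAM, KRT7, KRT8, KRT18, KRT19 and CDH1) summed to 14484 to 24068 CPM in A549 samples and to 1069 to 2185 CPM in H1792 samples. In H1792 they were lower with RG7112 (1069 to 1337 CPM) than with DMSO (1818 to 2185 CPM), with 4 of the 5 tested lower by the adjusted p, and in A549 these ranges overlapped, with 1 of 5 higher. Among all tested genes 16.5% were lower in H1792 and 4.35% higher in A549. The other gene tested in H1792, EPCAM, had a log2 fold change of 1.22 (adjusted p = 0.102). Keratins made up most of these sums, and KRT8 alone averaged 11745 CPM in A549 and 992 CPM in H1792 with DMSO. The 4 lung markers NKX2-1, SFTPB, SFTPC and NAPSA summed to at most 6.25 CPM in any sample. The list for other cell types (PTPRC, CD3E, PECAM1, COL1A1 and COL1A2) summed to 1.43 to 8.87 CPM in A549 and to 1113 to 1426 CPM in H1792, where COL1A1 and COL1A2 made it up. Within each line this sum was lower with RG7112 than with DMSO, at 1113 to 1285 against 1362 to 1426 CPM in H1792 and at 1.43 to 3.72 against 4.06 to 8.87 CPM in A549. By the adjusted p 0 genes of this list were lower, of 2 tested in H1792 and 1 in A549. The part of the epithelial list or of this list in the results below was not tested. CDKN1A and MDM2, both p53 targets, rose in A549 by a log2 fold change of 3.58 (SE 0.70, edgeR adjusted p = 0.0252) and 2.99 (SE 0.45, adjusted p = 0.0102). In H1792 the same genes had log2 fold changes of 0.15 (adjusted p = 0.882) and -0.05 (adjusted p = 0.928). Of the listed p53, proliferation and senescence genes, which include both, 0 to 2 were higher by adjusted p with 1 A549 replicate omitted.

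Promoter sequences of the members were taken from RefSeq (GRCh38.p14), as windows of 300 bases with 250 bases before and 50 bases after an annotated start site. Of the 8 genes, 7 had at least 1 window, 14 windows in all, and HMGB2 had none. The letters searched on both strands were TTTGAA (the core of the cell cycle genes homology region, CHR), TTTCGCGC or TTTGGCGC (forms of the E2F site) and CCAAT (the box read by NF-Y), and no motif of one kind overlapped another. CCAAT stood in 7 of the 14 windows, against 34.6% of all 35116 windows. The TMPO windows overlap and hold the same CCAAT letters, and each is counted among the 7. These 7 windows came from 5 of the 7 genes, for which no share over all genes was computed. TTTGAA stood in 3 of the 14 windows, against 15.2% of all windows. The E2F letters stood in none of the 14, against 1.15% of all. The windows below belong to 4 genes that were lower with RG7112 in A549 and show the range of CCAAT matches among them, with the matching letters in capitals, 5′ to 3′ on the strand of the gene.
TMPO: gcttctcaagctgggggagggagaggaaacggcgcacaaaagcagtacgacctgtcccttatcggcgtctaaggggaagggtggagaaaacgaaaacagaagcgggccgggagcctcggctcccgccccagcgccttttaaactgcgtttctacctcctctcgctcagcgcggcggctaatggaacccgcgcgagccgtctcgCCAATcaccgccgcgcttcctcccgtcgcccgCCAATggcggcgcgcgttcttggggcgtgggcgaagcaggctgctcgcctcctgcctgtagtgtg
HMGB1: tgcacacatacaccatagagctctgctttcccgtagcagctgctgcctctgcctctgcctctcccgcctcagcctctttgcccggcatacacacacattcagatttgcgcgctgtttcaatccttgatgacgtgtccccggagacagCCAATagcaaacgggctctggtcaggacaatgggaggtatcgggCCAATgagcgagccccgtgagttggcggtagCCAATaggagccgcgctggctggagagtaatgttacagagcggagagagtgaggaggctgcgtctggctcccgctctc
HMGB3: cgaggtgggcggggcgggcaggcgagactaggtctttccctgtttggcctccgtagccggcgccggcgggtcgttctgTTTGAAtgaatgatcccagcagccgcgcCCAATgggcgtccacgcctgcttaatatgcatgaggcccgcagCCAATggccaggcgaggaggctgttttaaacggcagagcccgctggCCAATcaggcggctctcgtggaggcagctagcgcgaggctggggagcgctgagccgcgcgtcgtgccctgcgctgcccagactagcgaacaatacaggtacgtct
LMNB1: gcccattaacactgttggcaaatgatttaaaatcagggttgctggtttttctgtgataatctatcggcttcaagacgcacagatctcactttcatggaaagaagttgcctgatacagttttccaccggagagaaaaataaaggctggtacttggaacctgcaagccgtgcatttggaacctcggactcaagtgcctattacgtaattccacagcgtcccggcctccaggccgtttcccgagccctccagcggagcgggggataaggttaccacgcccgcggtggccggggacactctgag
The TMPO, HMGB3 and LMNB1 windows are those nearest to the start of the gene in the annotation, while the HMGB1 window was chosen after the matches were seen, as the one with the most CCAAT. The TMPO window (chr12:98515323-98515622, plus strand) held CCAAT at 47 and 15 bases before the start site, 32 bases apart. The HMGB1 window (chr13:30465887-30466186, minus strand) held it at 103, 59 and 28 bases before the start site, with 44 and 31 bases between the first letters. It lies 151661 bases from the annotated start of HMGB1, where another window (distance 0) held none of the letters, and the remaining window of that gene held TTTGAA at 246 and ATTGG at 115 bases before its start site. The HMGB3 window (chrX:150983085-150983384, plus strand) held TTTGAA at 172 bases and CCAAT at 144, 101 and 55 bases before the start site, and the other window of that gene held none of the letters. At least 2 matches of CCAAT were found in 10.8% of all windows and at least 3 in 3.26%. The LMNB1 window (chr5:126776373-126776672, plus strand) held none of the letters, while the other window of that gene held ATTGG, the reverse complement of CCAAT, at 138 bases before its start site. The LBR window held none of the letters, although LBR was also called lower in A549. The LMNA window nearest to the annotated start held CCAAT at 146 bases before the start site, and LMNA did not pass the test in A549. These matches describe letters and not binding, and a tie between them and the fold changes was not tested.

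In A549 the mRNA of lamin B1 fell with RG7112 and that of lamins A and C did not pass the test. In H1792 it was LMNA that fell, by a smaller factor, and LMNB1 that did not pass. LMNB1 (ENSG00000113368, chromosome 5, 126776623 to 126837020 on GRCh38, plus strand) encodes lamin B1, the main B-type lamin of dividing cells. In A549 it measured 38.1, 29.4 and 25.9 CPM with DMSO and 3.41, 3.34 and 2.17 CPM with RG7112. The groups did not overlap, and all 3 RG7112 samples lay near 3 CPM, on 22, 7 and 8 counts. The mean fell from 31.1 ± 6.29 to 2.97 ± 0.69 CPM (SD, n = 3), a fall of 10.4-fold (95% interval 6.23 to 17.2, log2 fold change -3.37, SE 0.31, edgeR adjusted p = 0.00168). In H1792 the values were 38.8, 20.1 and 41.9 CPM with DMSO and 25.3, 46.6 and 57.3 CPM with RG7112. These groups overlapped, and the log2 fold change of 0.44 (95% interval -0.51 to 1.39, adjusted p = 0.422) did not pass the test. In bulk samples, fewer cells of a kind and less RNA per cell cannot be told apart, and this holds for every level given here.

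LMNB2 (ENSG00000176619, chromosome 19, 2427638 to 2456996, minus strand) encodes the other B-type lamin and had few counts in all samples. Whether the quantification lost reads of this gene could not be checked from the counts. Its counts in A549 were 34, 37 and 9 with DMSO (10.6, 6.31 and 2.24 CPM) and 51, 14 and 10 with RG7112 (7.90, 6.67 and 2.72 CPM). The groups overlapped, and the log2 fold change of -0.13 had a 95% interval of -1.63 to 1.37 (adjusted p = 0.929), wide enough to hold a change of more than 2-fold in either direction. In H1792 the counts were 0, 3 and 4 with DMSO and 0, 61 and 9 with RG7112, too few for the expression filter, so LMNB2 was not tested there. A count of 0 allowed a level of up to 1.06 CPM in replicate 1 with DMSO and 0.775 CPM in replicate 1 with RG7112, from counting error alone. LMNB2 overlaps TIMM13 and MIR7108 on the same strand in the annotation.

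LMNA (ENSG00000160789, chromosome 1, 156082573 to 156140089, plus strand) encodes lamins A and C by alternative splicing, and the gene-level counts do not separate these. A549 samples held 676, 686 and 854 CPM with DMSO and 627, 621 and 827 CPM with RG7112. The groups overlapped, with replicate 3 the highest in both, and the log2 fold change was -0.09 (95% interval -0.49 to 0.30, adjusted p = 0.784). In H1792 it measured 811, 976 and 981 CPM with DMSO and 592, 566 and 486 CPM with RG7112, without overlap. The mean fell from 923 ± 96.8 to 548 ± 55.0 CPM (SD, n = 3), a 1.60-fold fall (95% interval 1.35 to 1.90, adjusted p = 0.00557). LMNA is rich in GC (61.7%), and after a correction of the counts for GC content its log2 fold change in H1792 went from -0.68 to -0.10 (adjusted p = 0.398).

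**Figure D1:**
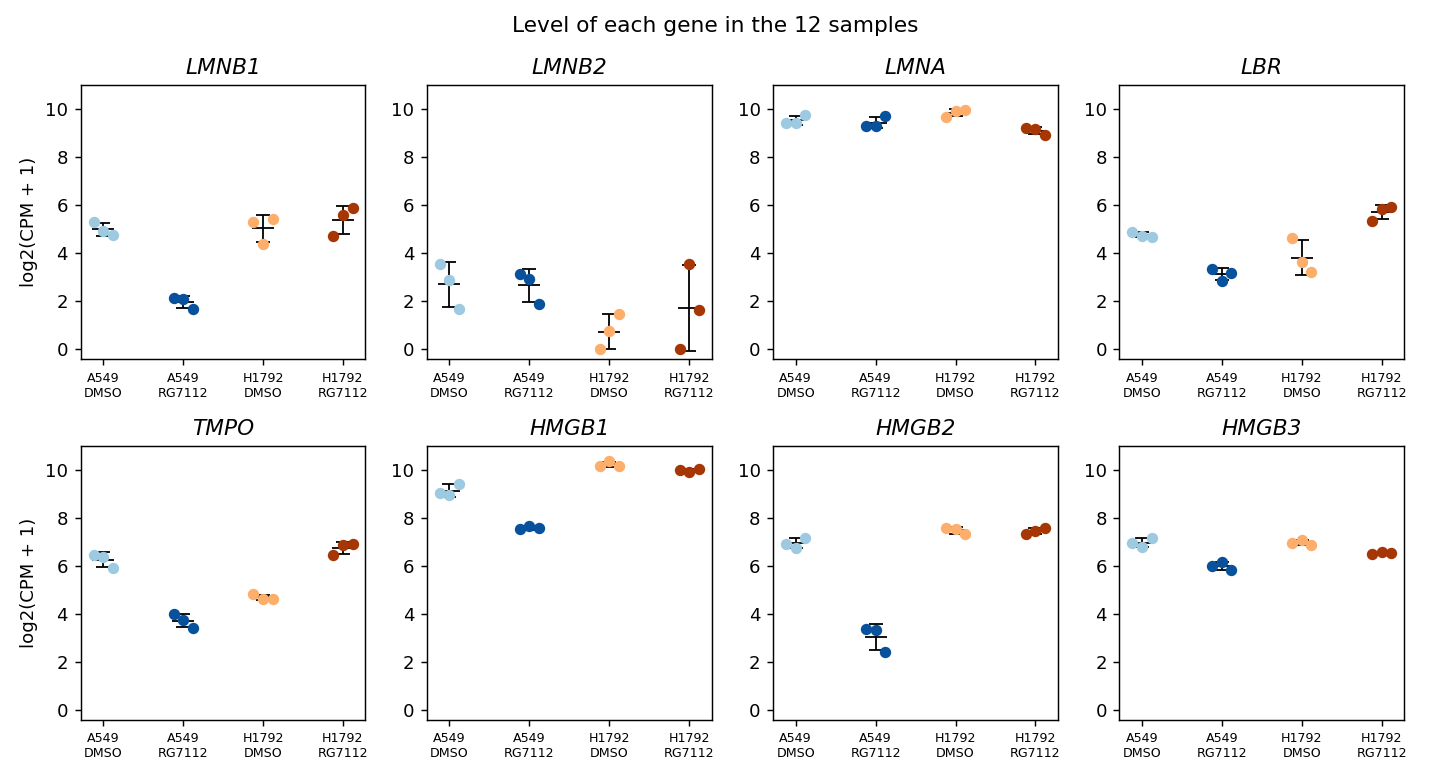
Level of each of the 8 genes as log2(CPM + 1) in the 12 samples, by cell line and treatment. Each point is 1 sample, with the mean and SD of 3 replicates in black. In A549 the RG7112 samples of LMNB1, LBR, TMPO, HMGB1, HMGB2 and HMGB3 all lie below the DMSO samples, while in H1792 LBR and TMPO lie above them.

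The lamina partners moved in opposite directions in the 2 cell lines. LBR (ENSG00000143815, chromosome 1, 225401502 to 225428925, minus strand) encodes the lamin B receptor, a membrane protein that tethers heterochromatin to the B-type lamina and has a sterol reductase domain. In A549 it measured 28.7, 25.6 and 24.7 CPM with DMSO and 9.14, 6.2 and 8.15 CPM with RG7112, without overlap. It fell 3.31-fold (95% interval 2.20 to 4.96, log2 fold change -1.73, SE 0.25, adjusted p = 0.0082). In H1792 it measured 23.6, 11.3 and 8.28 CPM with DMSO and 40.0, 56.6 and 59.4 CPM with RG7112, again without overlap although the DMSO samples were spread widely. It rose 3.79-fold (95% interval 1.97 to 7.30, log2 fold change 1.92, SE 0.40, adjusted p = 0.0128), and with the GC correction by a log2 fold change of 1.52 (adjusted p = 0.0272). With the GC correction and the replicate number as a block together it was 1.61 and no longer called (adjusted p = 0.078).

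TMPO (ENSG00000120802, chromosome 12, 98515512 to 98550379, plus strand) encodes the LAP2 proteins, among them membrane forms that bind lamin B1 and a nucleoplasmic form that binds A-type lamins. A549 samples held 87.8, 82.8 and 59.3 CPM with DMSO and 14.9, 12.4 and 9.78 CPM with RG7112. It fell 6.15-fold (95% interval 4.04 to 9.37, log2 fold change -2.62, SE 0.26, adjusted p = 0.00197). In H1792 it measured 27.1, 24.0 and 24.0 CPM with DMSO and 85.8, 117 and 119.9 CPM with RG7112. It rose 4.52-fold (95% interval 3.40 to 6.01, log2 fold change 2.18, SE 0.17, adjusted p = 0.00272). The groups did not overlap in either line, and the 3 H1792 samples with RG7112 lay within or above the range of A549 with DMSO. With the GC correction the rise in H1792 was 1.82 on the log2 scale (adjusted p = 0.00363). TMPO-AS1 overlaps TMPO on the opposite strand.

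All 3 HMGB genes were lower with RG7112 in A549, HMGB2 by far the most, and their fold changes in H1792 were smaller. Of these 3, only HMGB2 kept a difference between the lines that passed the test under every alternative. HMGB1 (ENSG00000189403, chromosome 13, 30456704 to 30617597, minus strand) encodes the most abundant HMGB protein, which also acts as an alarm signal when it leaves the cell. In A549 it measured 525, 489.8 and 684 CPM with DMSO and 183, 199 and 187 CPM with RG7112. It fell 2.98-fold (95% interval 2.30 to 3.86, log2 fold change -1.58, SE 0.16, adjusted p = 0.00205), without overlap. In H1792 it measured 1139, 1305 and 1139.6 CPM with DMSO and 1019.6, 962 and 1035 CPM with RG7112. The H1792 groups did not overlap, but the log2 fold change of -0.17 (95% interval -0.33 to -0.02, adjusted p = 0.0843) did not pass the test. The call depended on the processing, since with the GC correction the log2 fold change was -0.64 (adjusted p = 0.00419) and with scaling by library size alone it was 0.09 (adjusted p = 0.310). HMGB1 has a GC content of 39.2%.

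HMGB2 (ENSG00000164104, chromosome 4, 173331695 to 173335125, minus strand) encodes the HMGB protein most tied to proliferating cells. In A549 it measured 120.3, 106 and 144 CPM with DMSO and 9.45, 9.06 and 4.35 CPM with RG7112. The mean fell from 123 ± 19.1 to 7.62 ± 2.84 CPM (SD, n = 3), a fall of 16.1-fold (95% interval 9.56 to 27.2, log2 fold change -4.01, SE 0.32, adjusted p = 0.000888), the largest among the 8 genes. In H1792 it measured 189, 186 and 158 CPM with DMSO and 160.4, 172 and 189.95 CPM with RG7112. These ranges overlapped almost fully, with a log2 fold change of 0.05 (95% interval -0.19 to 0.29, adjusted p = 0.742).

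HMGB3 (ENSG00000029993, chromosome X, 150980509 to 150990775, plus strand) encodes an X-linked HMGB protein of embryonic and progenitor cells. A549 samples held 122, 110.1 and 142 CPM with DMSO, against 63.1, 71.0 and 56.5 CPM with RG7112. It fell 1.96-fold (95% interval 1.49 to 2.58, log2 fold change -0.97, SE 0.17, adjusted p = 0.0153), just short of the fold change threshold. The adjusted p was 0.0633 without replicate 1 and 0.0505 without replicate 2 of A549 with DMSO, and 0.0683 without replicate 1 of A549 with RG7112. In H1792 it measured 122, 134 and 116 CPM with DMSO and 90.4, 95 and 93.1 CPM with RG7112, a 1.27-fold fall (95% interval 1.11 to 1.45, adjusted p = 0.0199). That fall was -0.08 on the log2 scale with scaling by library size alone (adjusted p = 0.517), and its adjusted p was 0.0566 without a filter on low counts, 0.0812 with the replicate number as a block, 0.0696 without replicate 2 of H1792 with DMSO and 0.0614 and 0.0593 without replicates 2 and 3 of H1792 with RG7112. The annotation names 48 pseudogenes of HMGB1, 29 of HMGB3, 2 of TMPO and 1 of HMGB2, none of which is in the table, so the counts do not show how reads were shared with these copies.

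Counted by the thresholds of the study's methods (an adjusted p under 0.05 with at least a 2-fold change), 5 of the 8 genes were lower in A549 (LMNB1, LBR, TMPO, HMGB1 and HMGB2) and 0 were higher (all 8 fold changes were below 0), against 3.01% of 10739 tested genes lower and 3.18% higher. By the adjusted p alone 6 of the 8 were lower, HMGB3 being the sixth, against 4.03% lower and 4.35% higher among all tested genes. The median log2 fold change was -1.65 over the 8 genes and -0.01 over all tested genes. In H1792, where 7 of the 8 could be tested, 2 were higher (LBR and TMPO) and 0 lower, against 10.3% of 9914 tested genes higher and 4.34% lower. By the adjusted p alone 2 were higher and 2 lower (LMNA and HMGB3), against 17.7% and 16.5%. The median was 0.05 over the 7 genes and 0.01 over all tested genes. Scaling by library size alone moved the median of all tested genes in H1792 to 0.27, so every fold change there is relative to the TMM scaling.

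**Figure D2:**
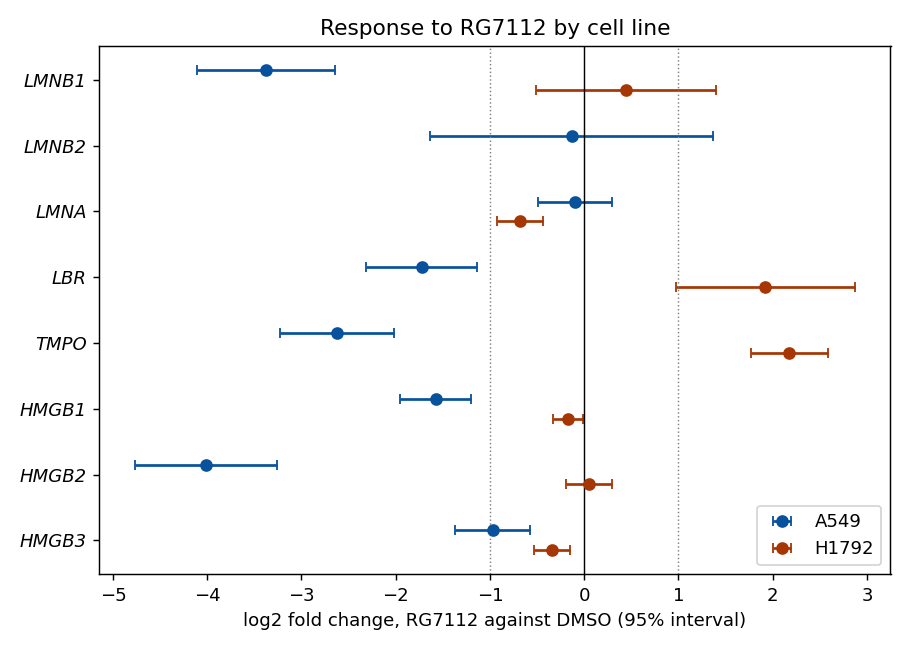
Log2 fold change of RG7112 against DMSO for each gene in A549 (blue) and H1792 (brown), with 95% intervals from edgeR. Dotted lines mark a 2-fold change, and LMNB2 was not tested in H1792. The intervals of LBR and TMPO lie on opposite sides of 0 in the 2 lines, and those of LMNB1 and HMGB2 lie far below 0 in A549 and include 0 in H1792.

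The difference between the responses of the 2 lines was tested as an interaction over all 12 samples. The difference, taken as the A549 response less the H1792 response on the log2 scale, was -4.72 for TMPO (adjusted p = 6.28e-06), the largest difference of the 8, and -3.57 for LBR (adjusted p = 0.000912). It was -3.98 for HMGB2 (adjusted p = 2.38e-05), -3.74 for LMNB1 (adjusted p = 0.00117) and -1.33 for HMGB1 (adjusted p = 0.00075). HMGB3 (-0.56, adjusted p = 0.0484) and LMNA (0.66, adjusted p = 0.0433) lay just past the threshold, and LMNB2 did not pass it (-2.62, adjusted p = 0.293). In all, 6 of the 8 were lower and 1 higher in A549 relative to H1792, against 11.4% and 10.4% of 11666 tested genes. With the GC correction the difference was -0.57 for HMGB1 (adjusted p = 0.0895), -0.33 for HMGB3 (adjusted p = 0.195) and -0.08 for LMNA (adjusted p = 0.695), and these 3 calls were lost, which left 4 genes lower. The call for LMNA was also lost (adjusted p 0.0574 to 0.121) when any of replicates 1 and 2 of A549 with DMSO, replicate 3 of A549 with RG7112, replicates 2 and 3 of H1792 with DMSO or any RG7112 replicate of H1792 was left out. That for HMGB3 was lost (adjusted p 0.0529 to 0.108) without any of replicates 1 and 3 of either A549 group, any DMSO replicate of H1792 or replicates 2 and 3 of H1792 with RG7112. LMNB1, LBR, TMPO and HMGB2 were called lower under every alternative in which they were tested.

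Between the DMSO groups, kept for 48 h without RG7112, the lines differed in TMPO and HMGB1. With DMSO, TMPO was 3.17-fold higher in A549 than in H1792 (95% interval 2.26 to 4.44, log2 fold change 1.66, SE 0.20, adjusted p = 0.000792), and HMGB1 was 2.05-fold lower (95% interval 1.65 to 2.54, log2 fold change -1.03, SE 0.13, adjusted p = 0.000892). Of the 7 genes tested, 1 was thus higher and 1 lower, against 20.6% and 14.8% of 10330 tested genes. HMGB1 lay so close to the fold change threshold that it was not counted without replicate 1 or 2 of A549 with DMSO or without replicate 2 of H1792 with DMSO. HMGB2 was 1.40-fold lower in A549 (adjusted p = 0.0212). LMNB1 differed by -0.06 on the log2 scale (95% interval -0.83 to 0.71, adjusted p = 0.899), a direction that turned with scaling by library size alone, and HMGB3 by 0.05 (95% interval -0.23 to 0.33, adjusted p = 0.751). LBR (0.91, adjusted p = 0.0904, but 1.44 with adjusted p = 0.00919 without replicate 1 of H1792 with DMSO) and LMNA (-0.28, adjusted p = 0.0975) did not pass the test.

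Levels can be set against each other only per length. Per kb of the longest coding transcript, LMNA was the highest of the 8 in A549 with DMSO at 232 ± 31.3 CPM per kb (SD, n = 3), followed by HMGB1 at 103 ± 18.9 and HMGB2 at 65.3 ± 10.1 CPM per kb. With RG7112, LMNA in A549 stood at 217 ± 36.7, HMGB1 at 34.6 ± 1.53 and HMGB2 at 4.03 ± 1.5 CPM per kb, and LMNB1 was the lowest of the 8 at 1.03 ± 0.24 CPM per kb. In H1792 LMNA went from 289 ± 30.3 to 172 ± 17.2 and HMGB1 from 218 ± 17.4 to 183 ± 7.01 CPM per kb, so that HMGB1 came first with RG7112. The ranks of LMNA and HMGB1 were the same with the median transcript length, but in A549 with DMSO HMGB3 (157 CPM per kb) then stood above HMGB2 (105 CPM per kb).

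Ratios of (CPM + 1) were also taken within each sample, where the added 1 lowers the ratio of LMNA to LMNB1 most in the A549 samples with RG7112, since LMNB1 was near 3 CPM there. The log2 ratio of LMNA to LMNB1 in A549 was 4.11, 4.50 and 4.99 with DMSO and 7.15, 7.16 and 8.03 with RG7112, a difference of 2.91 (two-sided exact permutation test, p = 0.1, the smallest that 3 samples against 3 allow). In H1792 the same ratio was 4.35, 5.53 and 4.52 with DMSO and 4.49, 3.57 and 3.06 with RG7112, which overlapped (difference -1.09, exact permutation p = 0.2). The log2 ratio of HMGB1 to HMGB2 in A549 was 2.12, 2.20 and 2.24 with DMSO and 4.14, 4.32 and 5.14 with RG7112 (difference 2.35, exact permutation p = 0.1). In H1792 it was 2.59, 2.81 and 2.84 with DMSO and 2.66, 2.47 and 2.44 with RG7112 (difference -0.22, exact permutation p = 0.2). In A549 the DMSO and RG7112 samples were thus apart for both ratios, and no p could fall below 0.1 by design.

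**Figure D3:**
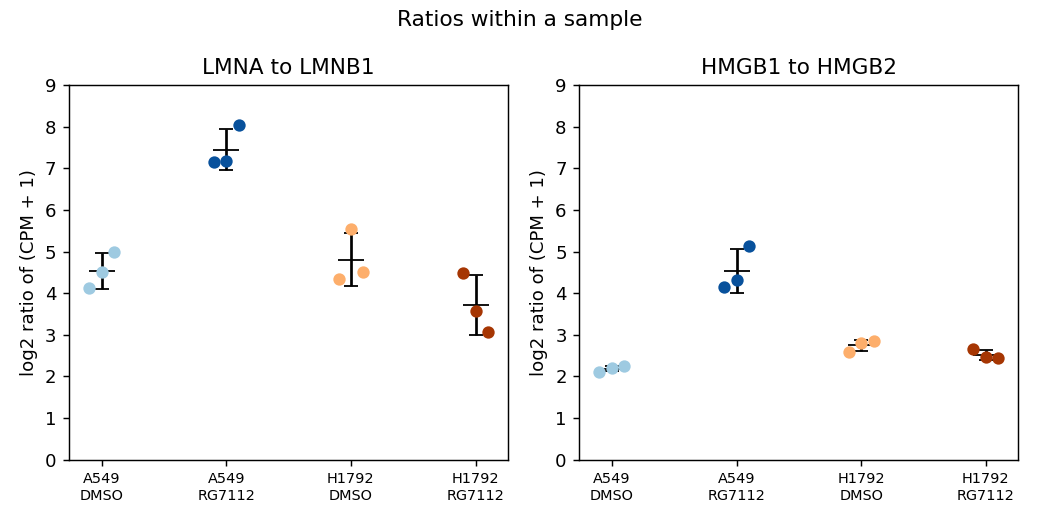
Log2 ratio of (CPM + 1) of LMNA to LMNB1 (left) and of HMGB1 to HMGB2 (right) within each of the 12 samples, with the mean and SD of 3 replicates. In A549 the RG7112 samples lie above all DMSO samples for both ratios, at 7.15 to 8.03 and 4.14 to 5.14.

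The pattern of LMNB1 over the 12 samples was most like that of DEK (Pearson's r 0.992), a chromatin protein, followed by NUSAP1 (0.986), HNRNPA2B1 (0.982), NUF2 (0.981) and BUB1 (0.975), of which NUSAP1, NUF2 and BUB1 act at the mitotic spindle or kinetochore. HMGB2 was most like UHRF1 (0.995), a factor of maintenance DNA methylation, then CPSF6 (0.993), KIF20A (0.991), SRSF3 (0.988) and H2AFZ (0.988). These genes had the highest r of log2 CPM among 11665 genes. Among the members, r was 0.961 between LMNB1 and HMGB2, 0.950 between HMGB1 and HMGB2 and 0.937 between LBR and TMPO, and it was -0.07 between LMNB1 and LMNA. The 12 points share cell lines and treatments, 3 to a group, so these coefficients describe the samples and carry no test.

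Of 18 listed envelope and lamina-binding genes, 15 could be tested in A549, and 1 was lower by the adjusted p and 0 higher (median log2 fold change -0.23), against 4.03% and 4.35% of all tested genes. At an unadjusted p under 0.05 these were 3 and 3, and DESeq2 called 3 lower and 1 higher. That gene was NRM, encoding nurim, a membrane protein of the inner nuclear envelope (log2 fold change -1.66, SE 0.39, adjusted p = 0.0451). TMEM201 (-1.06, adjusted p = 0.0646) and SUN2 (-0.47, adjusted p = 0.0682) had the next smallest p. In H1792, 3 of 16 tested were lower and 3 higher (median 0.03), near the shares of 16.5% lower and 17.7% higher among all tested genes. The same shares of each line are the background of the lists that follow. SUN1, which links lamins to the cytoskeleton, rose by 0.90 on the log2 scale (adjusted p = 0.00339), while TOR1AIP2 fell by 1.06 (adjusted p = 0.00585) and LEMD2, a LEM-domain protein of the inner membrane, fell by 1.59 (adjusted p = 0.00705). The others called in H1792, named after their values were seen, were LEMD3 (3.56, SE 0.82), TOR1AIP1 (1.08) and BANF1 (-0.59). LEMD3 had only 2, 0 and 4 counts with DMSO in H1792, against 26, 51 and 36 with RG7112. The size of its rise is therefore poorly determined.

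Lamins are farnesylated, cleaved and methylated before they are mature. Of the 5 genes of this processing, 0 passed the test in A549 with edgeR. ICMT (log2 fold change -1.0, adjusted p = 0.068) was the 1 gene with an unadjusted p under 0.05, and DESeq2 called 1 gene lower. FNTB (0.77, adjusted p = 0.322) and FNTA (-0.40, adjusted p = 0.436) came next. In H1792, 2 rose, ICMT (0.90, adjusted p = 0.00634), the methyltransferase, and FNTA (0.66, adjusted p = 0.0224), a farnesyltransferase subunit, and 1 fell, RCE1 (-0.90, adjusted p = 0.0239), a protease. The difference between the lines passed the test for ICMT (-1.83, adjusted p = 0.00384) and FNTA (-0.99, adjusted p = 0.0467).

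Among 11 other genes with HMG motifs or names, 9 were tested in A549, and 2 were lower and 0 higher by the adjusted p (median log2 fold change -0.62). At an unadjusted p under 0.05 these were 6 and 0, and DESeq2 called 5 lower and 0 higher. HMGN2, a nucleosome-binding protein, went from 149 ± 20.1 to 52.9 ± 2.58 CPM (SD, n = 3; log2 fold change -1.49, adjusted p = 0.00249), and HMGA1, an AT-hook protein, fell by 0.74 (adjusted p = 0.0365). HMGN1 lay just outside the threshold at -0.71 (adjusted p = 0.0523). In H1792, SSRP1 (-0.55, adjusted p = 0.0405) and HMGN5 (-0.79, adjusted p = 0.0491), named after their values were seen, were lower. With 1 H1792 replicate left out, 0 to 2 genes of this list were lower by the adjusted p. HMGA2 and HMGN1 were higher in H1792, with log2 fold changes of 0.73 and 0.39.

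Of 10 heterochromatin genes, 9 were tested in A549, with 1 lower and 0 higher by the adjusted p (median -0.56), 3 and 0 at an unadjusted p under 0.05, and 2 and 0 with DESeq2. CBX5, which encodes HP1α, a partner of LBR, went from 9.21 ± 0.97 to 2.71 ± 1.00 CPM (log2 fold change -1.82, SE 0.39, adjusted p = 0.0349). It had only 12, 8 and 9 counts with RG7112. Whichever A549 replicate was left out, 0 heterochromatin genes were lower by the adjusted p. SUV39H2, a histone H3 lysine methyltransferase, had -1.87 (adjusted p = 0.054) and CBX3 had -0.94 (adjusted p = 0.0721). In H1792 1 gene was lower by edgeR, by DESeq2 and at an unadjusted p under 0.05, TRIM28 (-0.97, adjusted p = 0.00707), and 0 were higher by any of these. CBX1 (1.43, adjusted p = 0.125) and SETDB1 (0.20, adjusted p = 0.196) had the next smallest p there.

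**Figure D4:**
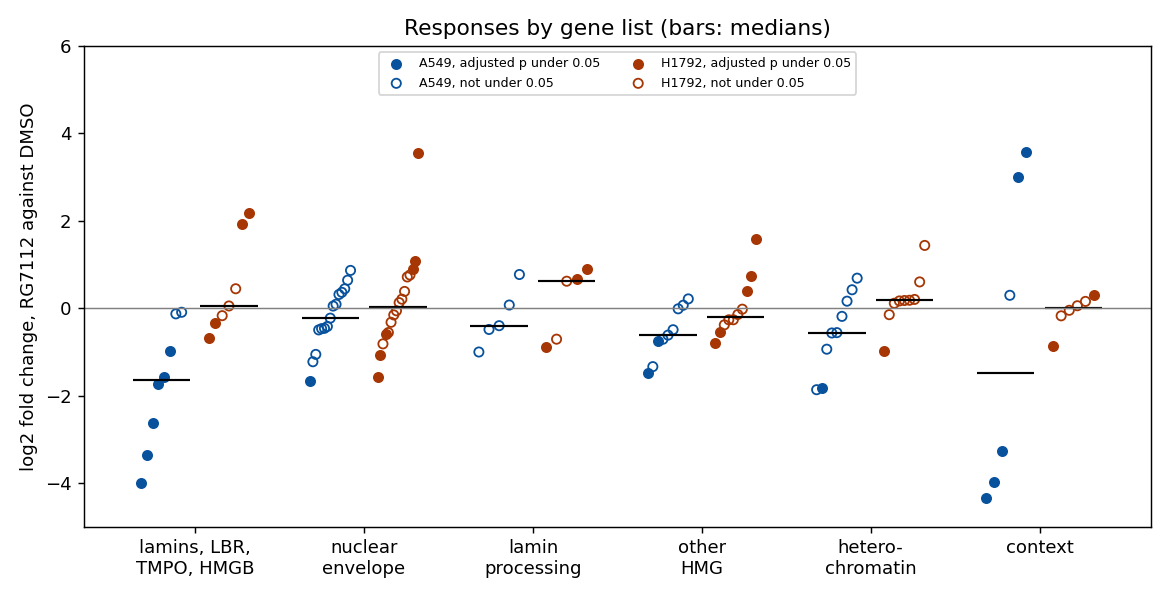
Log2 fold changes of RG7112 against DMSO for the 8 genes and for 5 other gene lists, in A549 (blue) and H1792 (brown), 1 point per tested gene, with filled points for an adjusted p under 0.05 and bars at the medians. In A549 the median of the 8 genes (-1.65) lies below those of the envelope (-0.23), lamin processing (-0.40), other HMG (-0.62) and heterochromatin (-0.56) lists.

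Genes of proliferation fell in A549, as did 6 of the 8 members by the adjusted p, all but LMNA and LMNB2. MKI67 went from 419 ± 86.2 to 20.5 ± 2.14 CPM (log2 fold change -4.35, SE 0.21, adjusted p = 0.000283), TOP2A fell by 3.98 (adjusted p = 0.0066) and CCNB1 by 3.27 (adjusted p = 0.000326). CDKN1A in A549 with RG7112 was 203 and 190 CPM in replicates 1 and 2 and 942 CPM in replicate 3. In that library LMNB1, LMNB2, TMPO, HMGB2 and HMGB3 were at their lowest of the group, and LMNA, LBR and HMGB1 were not. In A549 with DMSO, replicate 3 had the lowest CDKN1A (24.2 CPM) and also the lowest LMNB1 (25.9 CPM). Without replicate 3 of both A549 treatments, HMGB2 had a log2 fold change of -3.59 and HMGB3 of -0.79. GLB1, which encodes lysosomal β-galactosidase, had a log2 fold change of 0.29 in A549 (adjusted p = 0.818) and fell by 0.88 in H1792 (adjusted p = 0.0253). In H1792 the log2 fold changes were 0.05 for MKI67 (adjusted p = 0.760), -0.18 for TOP2A (adjusted p = 0.432) and 0.29 for CCNB1 (adjusted p = 0.041). The part of proliferation in the changes of the 8 genes was not tested.

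**Figure D5:**
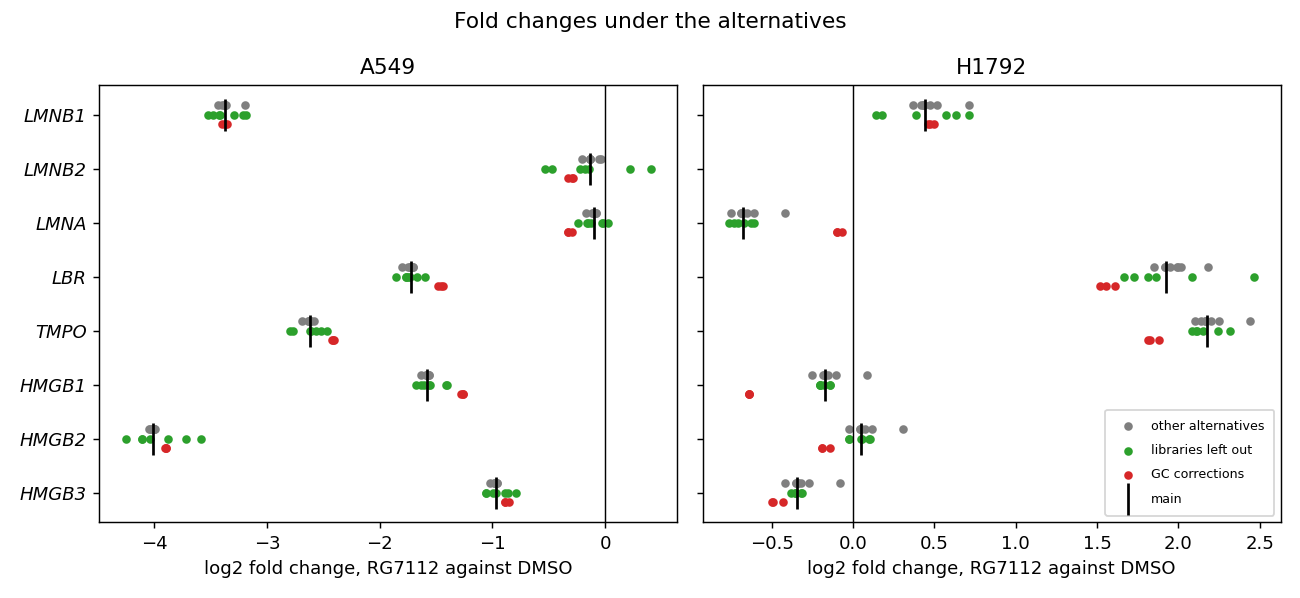
Log2 fold changes of the 8 genes in A549 (left) and H1792 (right) as first computed (black bar), with libraries left out (green), with corrections for GC content (red) and under the other alternatives (grey). In A549 the called genes stay on the same side of 0, and in H1792 the GC correction moves LMNA from -0.68 to -0.10 and HMGB1 from -0.17 to -0.64.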

How the data were processed

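Poly-A RNA of 12 samples was sequenced. Whole-number estimated counts (expected counts) of each gene were deposited by the authors, which per the submitters' processing notes were made with kallisto 0.45.0 on GRCh38. The methods name Ensembl release 95, and abundances were summed to genes without normalization. The labels give paired reads of 38 nt on a NextSeq and the methods give 150 nt on a HiSeq. All 12 columns were used.

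Samples were grouped by the labels. The test was edgeR 4.0.16 (quasi-likelihood, filterByExpr with a minimum count of 10 and a minimum total of 15, TMM, robust) in R 4.3.3, on all genes, per cell line, for the DMSO samples and as an interaction over 12 samples, with Benjamini-Hochberg adjustment over all tested genes. Every adjusted p is from edgeR unless another tool is named. Calls needed an adjusted p under 0.05 with a log2 fold change beyond 1 in either direction, except the interaction (adjusted p only). Positions, GC content and length came from GENCODE 29 (GRCh38), which held 18011 of the 20595 identifiers. Log2 ratios used log2(CPM + 1) and a two-sided exact permutation test. The procedure was tested on simulated data.

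The alternatives were DESeq2 1.42.0, limma-trend (limma 3.58.1, prior count 2), RLE factors, library size only, no filter, at least 10 counts in every sample, the replicate block, all 12 samples in one fit, loess corrections for GC content and length (span 0.5), other thresholds, a pseudocount of 0.5 for the ratios, and samples left out. The members and gene lists were chosen with earlier results of these data known. A result among the other HMG genes is not reported here. Named genes were the 8 members, the 3 genes with the smallest p of each list in each line, all context genes, and the 5 genes most correlated with LMNB1 and with HMGB2. Replicates differed by 5.12 to 23.3 times the counting noise (chi-square per degree of freedom), so none was a copy. The A549 pairs that held replicate 3 were the highest, at 15.5 to 23.3, against 5.63 (DMSO) and 5.12 (RG7112) for replicates 1 and 2. Where replicates were not separate cultures, p-values measure only technical spread. Floors of 3 counts cover counting error alone.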

Additional observations from a re-analysis of the deposited data

Results flagged for a closer look

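For 7 of the 8 genes the response to RG7112 differed between the cell lines by the interaction test over 12 samples, given as the A549 response less the H1792 response on the log2 scale. It was -4.72 for TMPO and -3.57 for LBR, the lamina partners, which fell in all 3 A549 samples and rose in all 3 H1792 samples relative to the DMSO range. It was -3.74 for LMNB1, -3.98 for HMGB2, -1.33 for HMGB1 and -0.56 for HMGB3. It was 0.66 for LMNA, a call lost and a sign turned (-0.08, adjusted p = 0.695) with the GC correction, under which the log2 fold change of LMNA in H1792 also went from -0.68 to -0.10 (adjusted p = 0.398). Among all tested genes 11.4% were lower and 10.4% higher. Over the alternatives the call was lost in 15 for HMGB3, in 2 for HMGB1 (adjusted p = 0.0895 with the GC correction) and in 10 for LMNA, whose sign turned in 3 more.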

How the results depend on the processing

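Over all alternatives, 504 of 562 fold changes of the 8 genes kept their direction and side of the threshold, 33 lost a call, 3 gained one and 22 changed sign. Genes never called count as kept, and outside the interaction so do genes under 2-fold that lost their adjusted p. In H1792 these were LMNA (adjusted p up to 0.514) and HMGB3 (up to 0.517). Between the DMSO groups, leaving out replicate 3 of A549 was the same fit under both of its names and was counted under each. In A549 the count of genes called lower was 5 to 6 and that of genes called higher 0 with each replicate left out. The sign turned without 1 replicate for LMNB2 (0.22 and 0.41, range -0.53 to 0.41) and LMNA (0.025, range -0.24 to 0.025), neither of which was called. In H1792 the count lower was 2 without a fold change threshold, and the count higher was 1 at an adjusted p under 0.01 and with the replicate block and GC correction combined, where LBR had 1.61 (adjusted p = 0.078). Uncalled genes turned sign in H1792, HMGB1 to 0.088 with library size only and HMGB2 to -0.19 with the GC correction, -0.14 with GC and length, -0.19 with the block and GC, -0.026 with all 12 samples in one fit and -0.023 to 0.11 over the replicates left out. In the interaction LMNA turned to -0.082 with the GC correction, -0.060 with GC and length and -0.079 with the block and GC, and the count higher was 0 with these, library size only, no filter, an adjusted p under 0.01 and some replicates left out (0 to 1). Between the DMSO groups the count lower was 0 with library size only and with at least 10 counts in every sample (0 to 1 over the replicates left out), and the count higher was 2 without a filter and without replicate 3 of A549 (1 to 2 over the replicates left out). There LMNB1 turned to 0.16 with library size only, 0.053 with at least 10 counts and 0.057 without replicate 3 of A549 (-0.35 to 0.12 over the replicates left out), and HMGB3 to -0.049 without replicate 3 of A549 (-0.049 to 0.13). The cause of these changes was not tested.

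The deviations of samples with the same replicate number had r of 0.06 to 0.27 in A549 and -0.02 to 0.00 in H1792. For different numbers r was -0.21 to 0.14 in A549 and -0.02 to 0.02 in H1792. These ranges overlapped, and in A549 only replicate 3 (0.27) lay above the range of different numbers. Nothing in the labels says that a number marks a shared batch. With the replicate number as a block, 5 genes were lower in A549, 2 higher in H1792 and 5 lower in the interaction, where HMGB3 (-0.56, adjusted p = 0.105) was no longer called. LMNB1 and LMNB2 in A549 had fewer than 10 counts in some samples and were not tested under that filter. Adding pseudogene counts was not run, since no pseudogene named after a member is in the table. Low counts limit LMNB2 in all samples and LMNB1 in A549 with RG7112.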
